A study of Mus musculus with 10 samples.

Results

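The genes described here encode 40 enzymes and core subunits that write or remove histone methylation and acetylation, taken by symbol from the 55421 genes of the count table. The list holds 9 Polycomb genes, 13 other methyltransferases, 7 demethylases, 6 acetyltransferases and 5 deacetylases. It goes by symbol and uses no measured value, but was drawn up with earlier results of these data known. RNA was sequenced from germinal center (GC) B cells of mouse spleen, in which antibody genes are mutated and the better antigen binders are retained. The mice were C57BL/6, 8 to 10 weeks old and at day 10 after immunization, and the cells were enriched on magnetic beads for the lectin PNA. HOMO mice were labelled Pbrm1-/- and WT mice Pbrm1+/+. The product of Pbrm1 belongs to PBAF, one of the SWI/SNF complexes that move nucleosomes, and has several bromodomains, which bind acetylated histones. Each genotype gave a fraction labelled CC and a fraction labelled CB, which the labels do not spell out, and the 10 libraries comprised 2 HOMO CC, 3 WT CC, 2 HOMO CB and 3 WT CB libraries. The names of all count columns begin with Pbrm1AID, and the letters AID are not explained by the labels. The labels name neither the antigen nor how the 2 fractions were separated, and no Cre driver or pooling of animals. They do not say that libraries came from separate mice, so that the p-values rest on a spread between libraries that may be technical.

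Histone marks are set by enzymes of opposite action. Polycomb repressive complex 2 (PRC2), built around Ezh1 or Ezh2 with Eed and Suz12, methylates H3K27, and Polycomb repressive complex 1 (PRC1) ubiquitinates H2A and compacts the chromatin that carries the PRC2 mark. The Kmt2 and Setd1 enzymes methylate H3K4 at enhancers and promoters, the p300 family and other acetyltransferases open chromatin, and demethylases and deacetylases remove these marks. In the GC reaction, Ezh2 is known for its high level in proliferating B cells, and in human lymphomas of GC origin EZH2, KMT2D, CREBBP and EP300 are recurrently mutated.

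The core PRC2 genes Ezh2, Eed and Suz12 are the members that fell in WT CC libraries, while Jarid2, an accessory subunit of the same complex, rose in CC libraries of both genotypes. Their promoters are shown for that reason, as 250 bases before and 50 bases after the RefSeq transcript start on GRCm38.p6, read 5′ to 3′ on the strand of the gene. Ezh2 lies at chr6:47594981-47595280 on the minus strand, Eed at chr7:89980927-89981226 on the minus strand, Suz12 at chr11:79992856-79993155 on the plus strand and Jarid2, the window of 2 that is nearest to the annotated gene start, at chr13:44730524-44730823 on the plus strand. Capitals mark TTTGGCGC and TTCCCGC, letters found in binding sites of E2F factors, and CCAAT, the letters bound by NF-Y, each on either strand.
Ezh2: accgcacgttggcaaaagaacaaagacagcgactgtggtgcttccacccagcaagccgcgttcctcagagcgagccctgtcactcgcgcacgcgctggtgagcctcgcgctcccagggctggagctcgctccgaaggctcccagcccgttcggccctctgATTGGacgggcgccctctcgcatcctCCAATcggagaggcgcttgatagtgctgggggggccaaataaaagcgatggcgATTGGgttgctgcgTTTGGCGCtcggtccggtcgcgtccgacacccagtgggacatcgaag
Eed: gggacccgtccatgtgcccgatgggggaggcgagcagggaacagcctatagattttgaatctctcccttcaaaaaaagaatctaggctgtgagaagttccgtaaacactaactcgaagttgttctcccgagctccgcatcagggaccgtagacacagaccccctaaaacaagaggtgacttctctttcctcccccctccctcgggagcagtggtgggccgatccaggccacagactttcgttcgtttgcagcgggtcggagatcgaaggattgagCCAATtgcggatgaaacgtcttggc
Suz12: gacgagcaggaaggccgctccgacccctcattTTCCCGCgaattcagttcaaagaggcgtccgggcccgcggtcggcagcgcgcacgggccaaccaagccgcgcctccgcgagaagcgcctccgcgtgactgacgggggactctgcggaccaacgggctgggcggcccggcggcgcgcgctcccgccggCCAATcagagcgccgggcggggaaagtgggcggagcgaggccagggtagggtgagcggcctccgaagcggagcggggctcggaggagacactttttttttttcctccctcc
Jarid2: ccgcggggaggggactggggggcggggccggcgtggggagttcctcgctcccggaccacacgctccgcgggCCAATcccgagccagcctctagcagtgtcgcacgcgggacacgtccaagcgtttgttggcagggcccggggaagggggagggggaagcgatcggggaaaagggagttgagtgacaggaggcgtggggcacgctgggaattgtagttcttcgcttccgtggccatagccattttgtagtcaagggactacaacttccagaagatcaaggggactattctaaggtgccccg

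The Ezh2 window held 1 TTTGGCGC and 3 CCAAT. The Suz12 window held 1 TTCCCGC and 1 CCAAT, and the Eed and Jarid2 windows held 1 CCAAT each. The letters TTTGAA, found in the CHR element of cell cycle genes and left in lower case, occurred in the Eed window at 2 places, in the Suz12 window at 1 place and in neither of the other windows. No matches overlapped each other in these windows. Of all 32851 RefSeq promoter windows of this length, 0.514% held TTTGGCGC, 4.60% TTCCCGC, 37.4% CCAAT and 17.9% TTTGAA. A match describes letters and no binding was measured. Of the 40 members, 30 had a promoter window in the RefSeq table.

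The targeted gene was measured first. Pbrm1 stood at 152 and 150 CPM (counts scaled to library size with TMM factors) in HOMO CC libraries, against 239, 239 and 250 CPM in WT CC libraries. In CB it stood at 178 and 164 CPM in HOMO libraries, against 319, 309 and 312 CPM in WT libraries. Its log2 change between HOMO and WT was -0.88 ± 0.09 (SE) in CB (adjusted p = 0.00954) and -0.68 ± 0.09 in CC (adjusted p = 0.0564), by edgeR's quasi-likelihood F-test with Benjamini-Hochberg adjustment over the 16596 genes tested, the test used throughout with a threshold of 0.05. The labels do not say which part of Pbrm1 is deleted, and the table sums reads over the whole gene. Total counts lay between 9954006 and 67625110 per library. Summed levels of 6 dark zone (CB) markers were 669 to 683 CPM in HOMO CC and 579 to 632 CPM in WT CC libraries, against 1536 to 1537 CPM in HOMO CB and 1375 to 1813 CPM in WT CB libraries. Those of 6 light zone (CC) markers were 897 to 910 CPM in HOMO CC and 867 to 947 CPM in WT CC libraries, against 393 to 427 CPM in HOMO CB and 391 to 451 CPM in WT CB libraries. The fractions therefore carried the markers of the zones where centrocytes and centroblasts lie, and 12 GC B cell markers summed to between 5525 and 7460 CPM in every library. Macrophage markers stood apart in WT CC libraries 1 and 2 (801 and 192 CPM over 9 genes other than Apoe, with 8.13 to 42.8 CPM in the other 8 libraries), and neutrophil markers in HOMO libraries numbered 2 (139 CPM in CC and 171 CPM in CB, with at most 15.3 CPM elsewhere). WT libraries of number 3 differed from the other WT libraries in Xist, an RNA of the inactive X chromosome, with 2386 CPM in CC and 2668 CPM in CB, against 708 and 84.5 CPM in WT CC and 467 and 72.5 CPM in WT CB libraries 1 and 2; HOMO libraries had 2022 to 2884 CPM. In bulk libraries, fewer cells of a type and less RNA per cell cannot be told apart.

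All 40 members passed the filter on low counts, and the lowest count of any member in any library was 59, for Kdm5b. Levels are compared between genes as CPM per kilobase of the deposited gene length, here the median over the 10 libraries. They ran from 0.338 CPM per kb for Kdm5b, an H3K4 demethylase at the 16th percentile of the genes tested, to 66.7 CPM per kb for Kmt2a, an H3K4 methyltransferase also called MLL1, at the 96.9th percentile. Close to Kmt2a stood Suz12 with 63.1 CPM per kb and Setd2, which trimethylates H3K36, with 58.8 CPM per kb. They were followed by the class I deacetylase Hdac1 (48.8 CPM per kb), the H3K36 methyltransferase Nsd1 (42.5 CPM per kb), the enhancer H3K4 methyltransferase Kmt2d (41.1 CPM per kb) and Ezh2 (40.7 CPM per kb). The lowest levels after Kdm5b belonged to Setd1b (2.91 CPM per kb), an H3K4 methyltransferase, the PRC1 subunit Bmi1 (3.09 CPM per kb) and the class IIa deacetylase Hdac5 (3.17 CPM per kb).

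Paralogs stood at unequal levels. Ezh2 was at 40.7 CPM per kb, against 4.72 CPM per kb for Ezh1, the PRC2 enzyme of resting cells. Setd1a stood at 7.39 CPM per kb and Setd1b at 2.91 CPM per kb, but 52.3% of the exon bases of Setd1a overlap other annotated genes, so that its count is uncertain. Hdac1 was at 48.8 CPM per kb and its close relative Hdac2 at 10.4 CPM per kb, while the acetyltransferases Ep300 (34.5 CPM per kb) and Crebbp (25.8 CPM per kb), and likewise Kat2a (10.8 CPM per kb) and Kat2b (11.2 CPM per kb), lay closer together. Of the class IIa deacetylases, Hdac7, which is known from lymphocytes, stood at 35.1 CPM per kb and Hdac5 at 3.17 CPM per kb. Kdm2a, an H3K36 demethylase, stood at 26.7 CPM per kb and its relative Kdm2b at 8.93 CPM per kb. The strand setting of the counting is not given in the sources used here, and exons of Suv39h2 (10.0% of bases), Kdm2b (8.7%) and Eed (6.8%) also overlap other genes, so that these counts too are uncertain. The other members share at most 4.7% of their exon bases.

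The genes that the comparisons turn on lie at the following places on mm10, as gene spans of the deposited annotation. Among the Polycomb genes, Ezh2 (ENSMUSG00000029687.16) at chr6:47530139-47595341 on the minus strand, Eed (ENSMUSG00000030619.10) at chr7:89954654-89980983 on the minus strand, Suz12 (ENSMUSG00000017548.15) at chr11:79993106-80034123 on the plus strand and Jarid2 (ENSMUSG00000038518.15) at chr13:44729474-44921643 on the plus strand were annotated. The methyltransferases were Kmt2d (ENSMUSG00000048154.17) at chr15:98831669-98871204 on the minus strand and Setd1b (ENSMUSG00000038384.16) at chr5:123142193-123168629 on the plus strand. The demethylases were Kdm6b (ENSMUSG00000018476.7) at chr11:69398508-69413675 on the minus strand and Kdm2b (ENSMUSG00000029475.17) at chr5:122870665-122989823 on the minus strand. The acetyltransferase was Kat2a (ENSMUSG00000020918.14) at chr11:100704746-100712465 on the minus strand and the deacetylases were Hdac7 (ENSMUSG00000022475.19) at chr15:97792664-97844502 on the minus strand and Hdac5 (ENSMUSG00000008855.17) at chr11:102194432-102230166 on the minus strand.

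**Figure D1:**
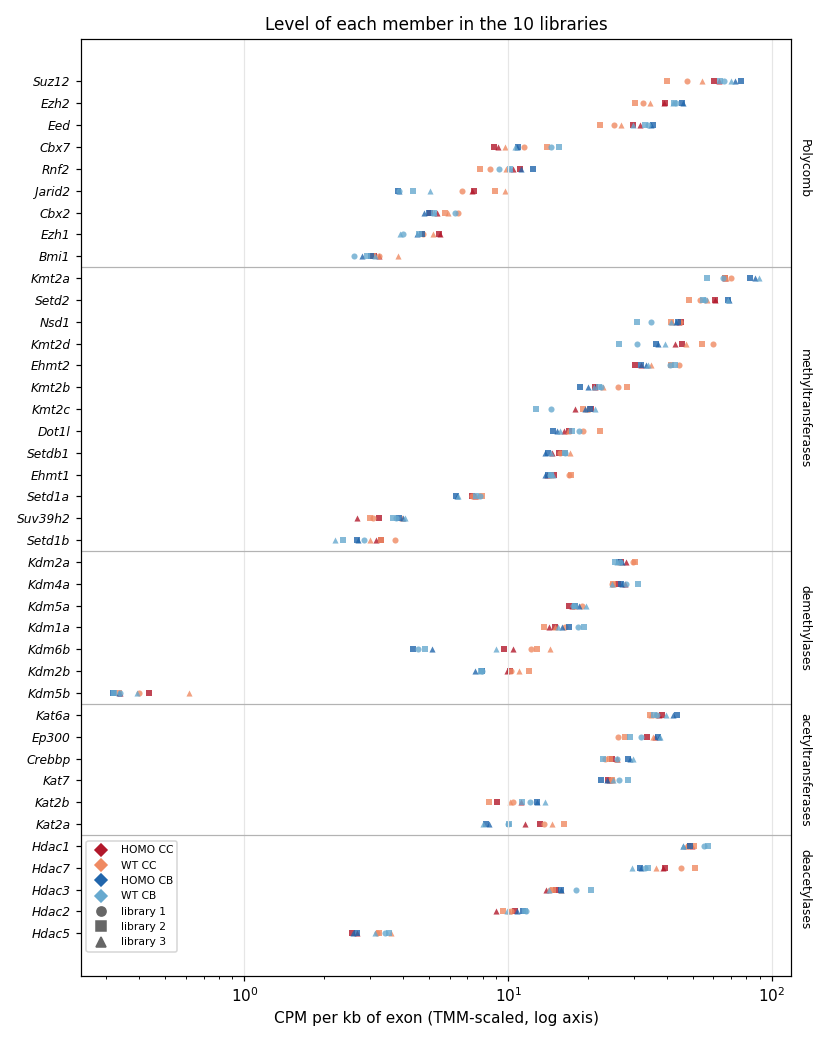
Levels of the 40 members in CPM per kilobase of gene length on a log axis, grouped by role, with 1 point for each of the 10 libraries coloured by group. Kmt2a, Suz12 and Setd2 have the highest medians (66.7, 63.1 and 58.8 CPM per kb), Kdm5b the lowest (0.338 CPM per kb), and most members differ far more from each other than between groups.

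In HOMO mice, 2 members rose and none fell in CC relative to CB. These were Jarid2 and Kat2a, the catalytic subunit of the SAGA coactivator, also known as GCN5, which acetylates H3K9. The call rate over all genes in this comparison was 5.45% (2.46% higher and 2.98% lower), and 2 of 40 members is 5%. The members' log2 changes had a median of 0.01 and ran from -0.41 to 1.07, and the median over all genes was -0.01.

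Jarid2 had 72.1 and 70.7 CPM in HOMO CC libraries, against 37.2 and 37.4 CPM in HOMO CB libraries, a log2 change of 0.94 ± 0.17 (SE, n = 2 each, edgeR adjusted p = 0.0101). Kat2a had 45.8 and 40.3 CPM in HOMO CC libraries, against 28.7 and 29.4 CPM in HOMO CB libraries, a log2 change of 0.57 ± 0.14 (edgeR adjusted p = 0.0446). Both genes were higher in each CC library than in each CB library. Kdm6b, an H3K27 demethylase that acts against PRC2 and is induced by inflammatory signals, had 66.8 and 72.4 CPM in HOMO CC libraries, against 30.4 and 35.7 CPM in HOMO CB libraries. Its log2 change of 1.07 ± 0.28 was the largest of the members and missed the threshold (edgeR adjusted p = 0.0524). Kdm2b, an H3K36 demethylase that brings a variant PRC1 to CpG islands, had 111 and 107 CPM in HOMO CC libraries, against 86.8 and 81.2 CPM in HOMO CB libraries, with a log2 change of 0.38 ± 0.11 (edgeR adjusted p = 0.0648). Ezh2 had 263 and 261 CPM in HOMO CC libraries, against 303 and 308 CPM in HOMO CB libraries, with a log2 change of -0.22 ± 0.10 (edgeR adjusted p = 0.227). These 3 genes did not overlap between the fractions either. With 2 libraries a group this was common. Of the 40 members, 17 were higher and 17 lower in each HOMO CC library than in each HOMO CB library. Of the 16596 genes tested, 4784 were higher and 5502 lower in the same way. Without the HOMO CC library 2 or 3, or the HOMO CB library 2 or 3, neither call held: the edgeR adjusted p of Jarid2 was then 0.102, 0.0809, 0.101 and 0.114, and that of Kat2a 0.295, 0.145, 0.267 and 0.257, in fits where the lone library of a group is assumed to vary like the others. Kat2a also missed the threshold without WT CB library 1 (adjusted p = 0.0702) or 2 (adjusted p = 0.053). With the WT number as a replicate block 5 members (12.5%) passed, against 13.8% of all genes, with Kdm2b (adjusted p = 0.0135), Kdm6b (adjusted p = 0.00432) and Hdac7 (adjusted p = 0.0394) in addition. That block covers WT libraries only, so that it leaves HOMO libraries unpaired and acts on HOMO calls through the shared error.

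In WT mice, 7 members rose and 3 fell in CC relative to CB. Core PRC2 genes fell, while Jarid2, H3K4 methyltransferases, 2 demethylases, Kat2a and Hdac7 rose. The 10 members called are 25%, against 23.9% of all genes tested (11.6% higher and 12.3% lower), so that their share lay near that of the background. The members' median log2 change was 0.02, within a range of -0.49 to 1.10, and that over all genes was 0.01. With upper-quartile scaling 59.5% of all genes called were higher, against 48.3% with TMM factors (58.5% and 45.2% in HOMO mice), and the 10 members were called with either scaling.

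Of the 9 Polycomb genes, 3 fell and 1 rose. Ezh2, the H3K27 methyltransferase of dividing cells, had 217, 202 and 230 CPM in WT CC libraries, against 290, 284 and 281 CPM in WT CB libraries. Its log2 change was -0.40 ± 0.08 (SE, n = 3 each, edgeR adjusted p = 0.00492). Eed, which binds the H3K27 mark and stimulates the enzyme, had 96.3, 85.6 and 103 CPM in WT CC libraries, against 130, 126 and 114 CPM in WT CB libraries (log2 change -0.38 ± 0.09, edgeR adjusted p = 0.0143). Suz12, the scaffold of PRC2, had 236, 198 and 268 CPM in WT CC libraries, against 326, 313 and 345 CPM in WT CB libraries (log2 change -0.49 ± 0.11, edgeR adjusted p = 0.0085). All WT CC libraries lay below all WT CB libraries for each of these genes, and CC library 2 was the lowest for each. Jarid2, which helps PRC2 find its targets and lost the catalytic activity of its demethylase relatives, had 64.8, 86.9 and 94.1 CPM in WT CC libraries, against 37.4, 42.4 and 49.1 CPM in WT CB libraries. Its log2 change of 0.93 ± 0.14 had an edgeR adjusted p of 0.0012, and the groups did not overlap. Of the 40 members, 11 were higher and 5 lower in each WT CC library than in each WT CB library. Of the 16596 genes tested, 2744 were higher and 2973 lower in the same way.

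The other Polycomb members did not pass the test. Ezh1 had a log2 change of 0.24 ± 0.10 in WT mice (edgeR adjusted p = 0.106) and 0.25 ± 0.12 in HOMO mice (adjusted p = 0.293). Rnf2, the H2A ubiquitin ligase of PRC1, had log2 changes of -0.13 in HOMO and -0.18 in WT mice, and its partner Bmi1 0.12 in HOMO and 0.23 in WT mice. The chromodomain readers of the PRC2 mark, Cbx2 and Cbx7, had 0.08 and -0.27 in HOMO mice and 0.12 and -0.20 in WT mice. In HOMO mice Eed and Suz12 had log2 changes of -0.19 ± 0.12 (edgeR adjusted p = 0.422) and -0.27 ± 0.13 (adjusted p = 0.30), and none of the core PRC2 genes passed there. Cell cycle genes moved beside these values: all 10 genes of the G2 and M phase list fell in WT CC and 9 of 10 in HOMO CC libraries, and the list summed to 4443 to 4466 CPM in HOMO CC and 3900 to 4025 CPM in WT CC libraries, against 7121 to 7454 CPM in HOMO CB and 6109 to 6893 CPM in WT CB libraries. Of 10 S phase genes, 5 fell in WT CC and none in HOMO CC libraries. The part of the cell cycle genes in the PRC2 values was not tested.

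Ratios within a library do not depend on its scaling. The level of Ezh2 per kilobase was 7.21 and 7.09 times that of Ezh1 in HOMO CC libraries, against 9.64 and 10.2 times in HOMO CB libraries. It was 6.82, 6.40 and 6.64 times in WT CC libraries, against 10.9, 9.29 and 10.8 times in WT CB libraries. The ratio was lower in each CC library than in each CB library of its genotype, with log2 differences of -0.47 in HOMO mice (exact two-sided permutation p = 0.333) and -0.64 in WT mice (exact two-sided permutation p = 0.1), the smallest p-values these designs allow. The level of Jarid2 over the mean of Ezh2, Eed and Suz12 was 0.172 and 0.163 in HOMO CC libraries, against 0.0733 and 0.0753 in HOMO CB libraries. It was 0.190, 0.290 and 0.252 in WT CC libraries, against 0.0805, 0.0943 and 0.107 in WT CB libraries. The log2 differences were 1.17 in HOMO and 1.36 in WT mice, with the same exact permutation p-values of 0.333 and 0.1. In each ratio, the genes above and below had already moved in opposite directions without overlap between the fractions. The separation was therefore fixed beforehand, and these p-values restate those levels and add no support.

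**Figure D2:**
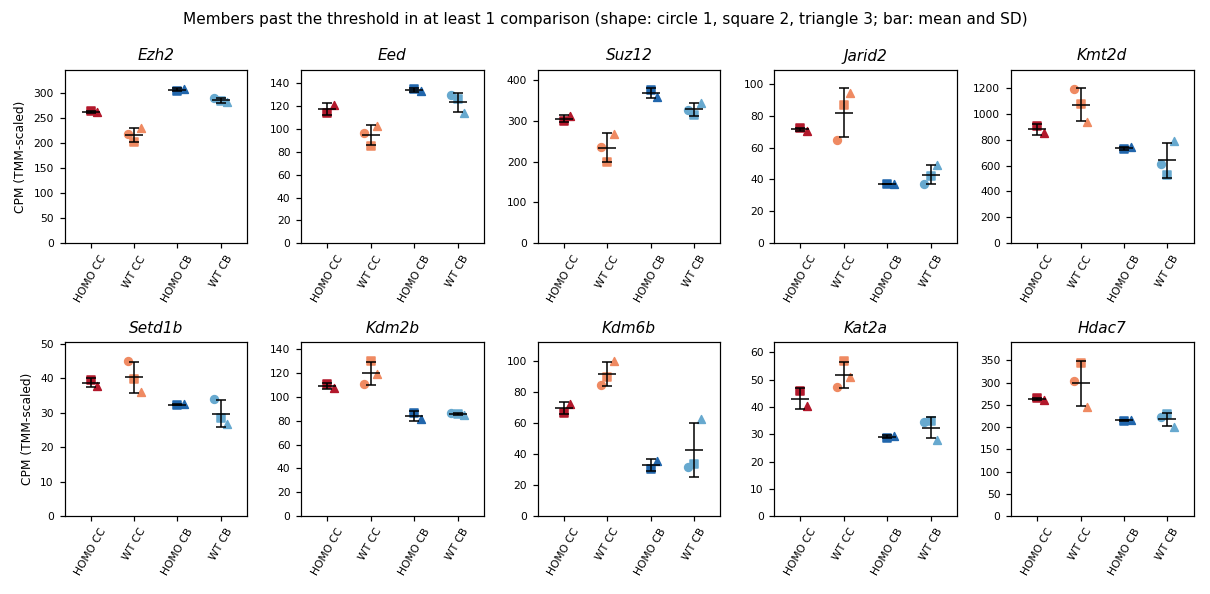
CPM of the 10 members that passed the test between CC and CB in WT mice, 1 panel a gene, with HOMO CC, WT CC, HOMO CB and WT CB from left to right. Points are libraries, and horizontal marks with bars are the mean ± SD of a group (n = 2 in HOMO and n = 3 in WT groups). Ezh2, Eed and Suz12 are lower in CC than in CB libraries of both genotypes, and Jarid2, Kmt2d, Setd1b, Kdm6b, Kdm2b, Kat2a and Hdac7 higher.

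Of the 13 other methyltransferases, 2 rose in WT CC libraries and none fell. Kmt2d, which places H3K4 monomethylation at enhancers, had 1193, 1079 and 938 CPM in WT CC libraries, against 612, 525 and 786 CPM in WT CB libraries (log2 change 0.74 ± 0.14, edgeR adjusted p = 0.00408). Setd1b had 45.1, 39.9 and 36.0 CPM in WT CC libraries, against 34.2, 28.4 and 26.6 CPM in WT CB libraries (log2 change 0.44 ± 0.12, edgeR adjusted p = 0.0213). The groups did not overlap for either gene, and CB library 3 was the highest of its group for Kmt2d and the lowest for Setd1b. In HOMO mice the log2 changes were 0.26 ± 0.17 for Kmt2d (edgeR adjusted p = 0.467) and 0.26 ± 0.15 for Setd1b (adjusted p = 0.384). The remaining H3K4 enzymes had log2 changes of -0.35 in HOMO and -0.05 in WT mice for Kmt2a, 0.14 and 0.23 for Kmt2b, -0.05 and 0.29 for Kmt2c, and 0.21 and 0.07 for Setd1a in the same order. The H3K36 enzymes Setd2 and Nsd1 had -0.17 and 0.03 in HOMO mice and -0.17 and 0.26 in WT mice. Dot1l, the H3K79 enzyme, had 0.15 in HOMO and 0.18 in WT mice. The H3K9 enzymes Ehmt1, Ehmt2, Suv39h2 and Setdb1 lay between -0.41, for Suv39h2, and 0.11 in HOMO mice and between -0.20, again for Suv39h2, and 0.17 in WT mice.

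Of the 7 demethylases, 2 rose in WT CC libraries. Kdm6b had 84.9, 89.7 and 100 CPM in WT CC libraries, against 31.7, 33.6 and 62.5 CPM in WT CB libraries. Its log2 change of 1.10 ± 0.22 was the largest of the members (edgeR adjusted p = 0.00688), and CB library 3 stood nearly midway between the other CB libraries and the CC libraries. Kdm2b had 111, 130 and 119 CPM in WT CC libraries, against 86.6, 86.0 and 85.1 CPM in WT CB libraries (log2 change 0.48 ± 0.09, edgeR adjusted p = 0.00292). The CB libraries of Kdm2b agreed closely, and all CC libraries lay above them. The others did not pass in either genotype: Kdm1a, the FAD-dependent H3K4 demethylase, had log2 changes of -0.17 in HOMO and -0.24 in WT mice, Kdm2a 0.04 in HOMO and 0.16 in WT mice, and the H3K4 demethylases Kdm5a and Kdm5b -0.08 and 0.25 in HOMO mice and -0.01 and 0.35 in WT mice. Kdm4a, which demethylates H3K9 and H3K36, had a log2 change of -0.17 in WT mice, with 151 and 160 CPM in HOMO CC libraries, against 155 and 156 CPM in HOMO CB libraries.

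Among the 6 acetyltransferases, Kat2a alone passed in WT mice, and among the 5 deacetylases Hdac7 alone. Kat2a had 47.4, 56.9 and 51.1 CPM in WT CC libraries, against 34.7, 34.9 and 27.9 CPM in WT CB libraries (log2 change 0.68 ± 0.12, edgeR adjusted p = 0.00257). Its paralog Kat2b had a log2 change of the other sign, -0.35 ± 0.12 in WT mice (edgeR adjusted p = 0.0535) and -0.34 ± 0.15 in HOMO mice (adjusted p = 0.23), with 44.2 and 54.5 CPM in HOMO CC and 51.0, 41.3 and 49.4 CPM in WT CC libraries, against 62.4 and 62.4 CPM in HOMO CB and 58.7, 54.8 and 67.1 CPM in WT CB libraries. Hdac7 had 305, 345 and 246 CPM in WT CC libraries, against 223, 228 and 200 CPM in WT CB libraries (log2 change 0.46 ± 0.12, edgeR adjusted p = 0.0159). Both genes were higher in each WT CC library than in each WT CB library, and Hdac7 was spread more widely in CC. The H3K27 acetyltransferases Crebbp and Ep300 had log2 changes of -0.18 and -0.09 in HOMO mice and -0.09 and -0.14 in WT mice, and Kat6a, also known as MOZ, had -0.18 in HOMO and -0.09 in WT mice. Kat7, also known as HBO1, had 0.05 in HOMO and -0.10 in WT mice. The class I deacetylases Hdac1, Hdac2 and Hdac3 lay between -0.18 and 0.05 in HOMO mice and between -0.23 and -0.12 in WT mice, and Hdac5 had -0.01 in each genotype.

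**Figure D3:**
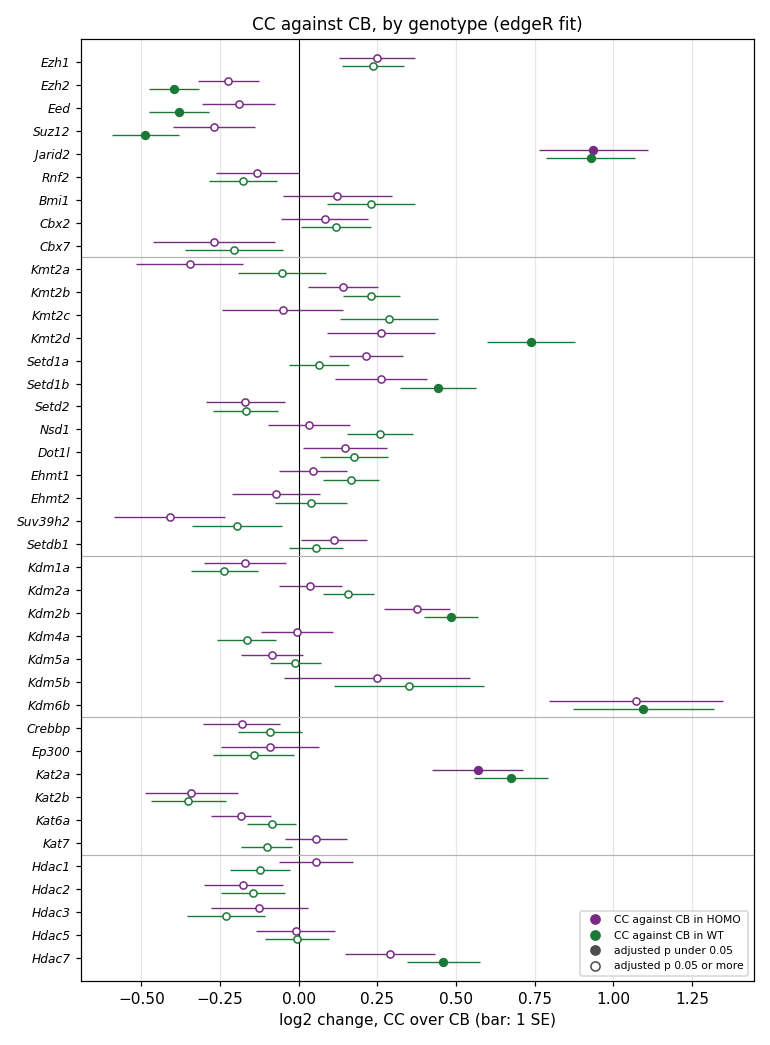
Log2 change of each member between CC and CB, with HOMO mice above WT mice for each gene and bars of 1 SE; filled points passed the adjusted p of 0.05. Jarid2 and Kat2a are filled in HOMO mice (0.94 and 0.57), and 10 members are filled in WT mice, from Suz12 at -0.49 to Kdm6b at 1.10.

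GC content of the transcripts moved with these calls. The 7 members that rose in WT CC libraries had a GC content of 48.8% to 60.2% (median 58.4%), the 3 that fell 41.6% to 47.8% (median 44.4%) and the other 30 members 39.5% to 60.8%. The rank correlation of a library's deviation with GC content over 8802 genes was 0.431, 0.552 and 0.152 in WT CC libraries, against 0.150, 0.248 and -0.457 in WT CB libraries. With an offset for GC content 11 members (27.5%) passed, against 25.2% of all genes: Ezh2 (log2 change -0.22), Eed (-0.29), Suz12 (-0.26), Jarid2 (0.98), Kdm2b (0.46), Kat2a (0.55) and Hdac7 (0.26) again, and Bmi1 (0.48), Cbx7 (-0.30), Nsd1 (0.37) and Kdm2a (0.24) in addition, while Kmt2d (0.55, edgeR adjusted p = 0.0593), Setd1b (0.28, adjusted p = 0.0655) and Kdm6b (0.88, adjusted p = 0.0902) missed the threshold. The ribosomal RNA locus took 22.7%, 19.0% and 13.5% of counts in WT CC libraries, against 11.9%, 11.5% and 11.3% in WT CB libraries. With that share as a covariate, 2 members (5%) passed in WT mice, Jarid2 (log2 change 1.31, edgeR adjusted p = 0.00325) and Kdm2b (0.54, adjusted p = 0.0472), where the call rate over all genes was 3.95%. The share was higher in each WT CC than in each WT CB library. This fit therefore cannot fully separate it from the fraction, and nothing is concluded from the calls lost.

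Markers of other cells moved with CC too. Of 10 macrophage markers, 8 rose in WT CC libraries. In HOMO mice, 4784 of the 16596 genes tested were higher in each CC library than in each CB library. So were 9 of the 10 macrophage markers, though none of them passed. Their sum was 247 and 237 CPM in HOMO CC and 1157, 500 and 295 CPM in WT CC libraries, against 312 and 275 CPM in HOMO CB and 376, 409 and 315 CPM in WT CB libraries. Apoe gave most of it in all libraries but WT CC library 1, and the other 9 genes summed to 19.96 and 25.7 CPM in HOMO CC and 801, 192 and 42.8 CPM in WT CC libraries, against 8.13 and 9.59 CPM in HOMO CB and 19.0, 9.62 and 14.4 CPM in WT CB libraries. WT CC library 3 was thus above the WT CB libraries as well. Of 5 dendritic cell and 5 erythroid markers tested, 3 each rose in WT CC libraries and none passed in HOMO mice; their sums were 35.5 to 53.4 and 2.81 to 60.4 CPM in WT CC libraries, against 31.1 to 39.3 and 2.02 to 3.74 CPM in WT CB libraries. The part of these cells in the members' values was not tested beyond leaving out libraries. Without WT CC libraries 1 and 2, Jarid2 (log2 change 1.13, edgeR adjusted p = 0.00581), Kdm2b (0.48, adjusted p = 0.0289) and Kat2a (0.66, adjusted p = 0.0429) still passed, and Kdm6b had a log2 change of 1.23 (adjusted p = 0.077). The values of the other members called in WT mice were then Ezh2 -0.30 (adjusted p = 0.11), Eed -0.26 (adjusted p = 0.223), Suz12 -0.29 (adjusted p = 0.164), Kmt2d 0.55 (adjusted p = 0.135), Setd1b 0.29 (adjusted p = 0.309) and Hdac7 0.19 (adjusted p = 0.351), with a single WT CC library left that is assumed to vary like the others.

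Single libraries, or both libraries of a WT number, decided some of the calls in WT mice. Eed missed the threshold without WT CC library 2 (edgeR adjusted p = 0.0594) or WT CB library 1 (adjusted p = 0.0693), Setd1b without WT CC library 1 (adjusted p = 0.0865) or 2 (adjusted p = 0.0537) or WT CB library 2 (adjusted p = 0.0729), and Hdac7 without WT CC library 1 (adjusted p = 0.0509) or 2 (adjusted p = 0.0648). Without WT CB library 3, 16 members (40%) passed, against 32.0% of all genes. Without both libraries of WT number 1, 3 members (7.5%) passed, against 6.32% of all genes. Without both of number 2, 4 members (10%) passed, against 7.62% of all genes. All of these rose, so that Ezh2, Eed and Suz12 passed in neither fit. Without both of number 3, 24 members (60%) passed, 13 higher and 11 lower, against 46.0% of all genes. With the WT number as a replicate block 14 members (35%) passed, against 35.4% of all genes, with Cbx7 (log2 change -0.20, adjusted p = 0.0382), Kmt2b (0.23, adjusted p = 0.022), Nsd1 (0.27, adjusted p = 0.0222) and Kat2b (-0.35, adjusted p = 0.011) in addition. Over all 26 alternatives, Jarid2 and Kdm2b passed in WT mice in each, with the highest adjusted p at 0.0254 and 0.0472, and no alternative changed the sign of any of the 10 members called.

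Between genotypes, no member passed the test in CB. Over all genes 4 passed, or 0.0241%. At an unadjusted p under 0.05 there were 4 members, against 12.5% of all genes, and DESeq2 called no member either. The members' log2 changes between HOMO and WT had a median of -0.01 and ran from -0.37, for Kdm6b, to 0.30, for Kmt2c. Libraries did not overlap for 7 members that were higher and 9 that were lower in HOMO CB, where 18.8% and 16.4% of all genes did the same.

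The member with the smallest p was Hdac5, a class IIa deacetylase that shuttles between nucleus and cytoplasm. It had 23.5 and 22.7 CPM in HOMO CB libraries, against 30.0, 31.0 and 27.6 CPM in WT CB libraries (log2 change -0.35 ± 0.11, SE, n = 2 and 3, edgeR adjusted p = 0.289). Nsd1 had 772 and 755 CPM in HOMO CB libraries, against 610, 538 and 722 CPM in WT CB libraries (log2 change 0.29 ± 0.12, edgeR adjusted p = 0.369). Kat6a had 409 and 395 CPM in HOMO CB libraries, against 342, 333 and 371 CPM in WT CB libraries (log2 change 0.20 ± 0.09, edgeR adjusted p = 0.386). For Nsd1 and Kat6a the WT library 3 lay nearest to the HOMO libraries. Kat7 had 124 and 131 CPM in HOMO CB libraries, against 145, 158 and 138 CPM in WT CB libraries (log2 change -0.21 ± 0.09, edgeR adjusted p = 0.391). Rnf2 had 51.1 and 46.2 CPM in HOMO CB libraries, against 38.0, 41.8 and 42.0 CPM in WT CB libraries (log2 change 0.26 ± 0.12, edgeR adjusted p = 0.40). Without WT CB library 3, 6 members (15%) passed, against 12.1% of all genes, namely Kmt2a (log2 change 0.47, adjusted p = 0.00886), Kmt2c (0.55, adjusted p = 0.0078), Setd2 (0.31, adjusted p = 0.0413), Nsd1 (0.41, adjusted p = 0.0142), Kat6a (0.25, adjusted p = 0.0481) and Hdac5 (-0.40, adjusted p = 0.0391). With the WT number as a replicate block Cbx7 passed (log2 change -0.30, adjusted p = 0.0368), with 7.67% of all genes, and that fit takes the spread between WT numbers out of the error.

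In CC no member and no gene (0%) passed between HOMO and WT. At an unadjusted p under 0.05 there were 7 members, against 18.9% of all genes, and DESeq2 called Ezh2 (log2 change 0.28, DESeq2 adjusted p = 0.0257) and 816 genes in all. The members' log2 changes had a median of -0.05 and ran from -0.40, for Kdm6b, to 0.38, for Suz12. Libraries did not overlap for 8 members that were higher and 12 that were lower in HOMO CC, where 17.7% and 17.4% of all genes did the same.

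The core PRC2 genes stood among the members with the smallest p. Suz12 had 299 and 311 CPM in HOMO CC libraries, against 236, 198 and 268 CPM in WT CC libraries (log2 change 0.38 ± 0.12, SE, n = 2 and 3, edgeR adjusted p = 0.156). Ezh2 had 263 and 261 CPM in HOMO CC libraries, against 217, 202 and 230 CPM in WT CC libraries (log2 change 0.28 ± 0.09, edgeR adjusted p = 0.158). Eed had 114 and 121 CPM in HOMO CC libraries, against 96.3, 85.6 and 103 CPM in WT CC libraries (log2 change 0.31 ± 0.11, edgeR adjusted p = 0.173). For all 3 genes both HOMO libraries lay above all WT libraries, and WT library 3 was the nearest to them. Hdac5 had 22.5 and 23.4 CPM in HOMO CC libraries, against 28.1, 28.5 and 31.7 CPM in WT CC libraries (log2 change -0.36 ± 0.12, edgeR adjusted p = 0.163). Ehmt2, the H3K9 methyltransferase also known as G9a, had 166 and 175 CPM in HOMO CC libraries, against 243, 227 and 191 CPM in WT CC libraries (log2 change -0.37 ± 0.13, edgeR adjusted p = 0.178). Rnf2 and Kmt2b were the others at an unadjusted p under 0.05, with log2 changes of 0.30 ± 0.12 (edgeR adjusted p = 0.218) and -0.27 ± 0.10 (edgeR adjusted p = 0.202).

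These values depended on the WT libraries taken. Without WT CC library 3, 6 members (15%) and 2424 genes (14.8%) passed in CC, namely Suz12 (log2 change 0.50, edgeR adjusted p = 0.0134), Ezh2 (0.33, adjusted p = 0.0219), Eed (0.38, adjusted p = 0.0258), Rnf2 (0.41, adjusted p = 0.0323), Kmt2b (-0.33, adjusted p = 0.0266) and Ehmt2 (-0.45, adjusted p = 0.0217). With the WT number as a replicate block 6 members (15%) and 1868 genes (11.3%) passed, namely Suz12 (0.39, adjusted p = 0.0129), Ezh2 (0.28, adjusted p = 0.0285), Eed (0.31, adjusted p = 0.0496), Cbx7 (-0.37, adjusted p = 0.0174), Kmt2b (-0.26, adjusted p = 0.0463) and Ehmt2 (-0.36, adjusted p = 0.0123). The block takes the spread between WT numbers out of the error by which genotypes are compared, so that its p-values are likely too small here. With the block and the offset for GC content together, no member passed. The rank correlation with GC content was -0.173 and -0.222 in HOMO CC libraries, against 0.431, 0.552 and 0.152 in WT CC libraries, and -0.632 and -0.605 in HOMO CB libraries, against 0.150, 0.248 and -0.457 in WT CB libraries. WT CB library 3 lay nearer to the HOMO mean than to the mean of the other WT libraries for 29 of 40 members (72.5%), against 65.3% of all genes, and WT CC library 3 for 20 of 40 members, against 61.3% of all genes. Macrophage markers stood apart in WT CC libraries 1 and 2 and neutrophil markers in HOMO libraries numbered 2, as given above. No marker of either list passed between HOMO and WT. In CC, 9 of 10 macrophage markers were lower in each HOMO than in each WT library, against 17.4% of all genes. Of 8 neutrophil markers tested, 4 were higher in the same way, against 17.7% of all genes. The part of these cells in the members' values was not tested.

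**Figure D4:**
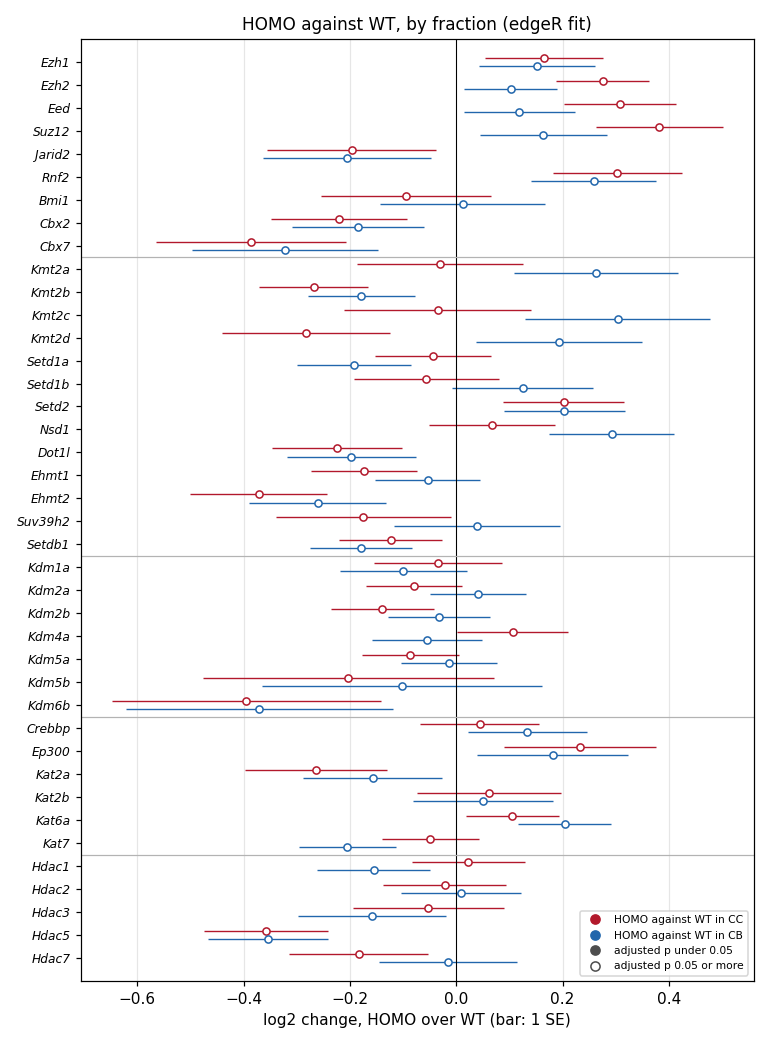
Log2 change of each member between HOMO and WT, with CC above CB for each gene and bars of 1 SE. None of the 40 members passed an adjusted p of 0.05 in either fraction; the changes run from -0.40 to 0.38 in CC and from -0.37 to 0.30 in CB.

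The interaction asks whether the difference between HOMO and WT was another in CC than in CB. No member and no gene (0%) passed by edgeR or by DESeq2, and no member had an unadjusted p under 0.05, against 2.62% of all genes. The members' log2 interaction terms, CC minus CB, had a median of -0.03 and ran from -0.48 to 0.22. The calls in WT mice that were not made in HOMO mice are therefore not shown to differ between the genotypes.

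Kmt2d had the smallest p. Its log2 interaction was -0.48 ± 0.22, with 907 and 852 CPM in HOMO CC and 726 and 740 CPM in HOMO CB libraries, against 1193, 1079 and 938 CPM in WT CC and 612, 525 and 786 CPM in WT CB libraries (edgeR adjusted p of 1.0). For Ezh2 the interaction was 0.17 ± 0.12, from the levels given above. Kmt2c, the paralog of Kmt2d at enhancers, had -0.34 ± 0.25, with 419 and 364 CPM in HOMO CC and 414 and 398 CPM in HOMO CB libraries, against 412, 389 and 403 CPM in WT CC and 296, 259 and 431 CPM in WT CB libraries. Among these the WT CB library 3 stood with the HOMO libraries, above the other WT CB libraries. Nsd1 had -0.23 ± 0.17, with 788 and 774 CPM in HOMO CC and 772 and 755 CPM in HOMO CB libraries, against 782, 725 and 731 CPM in WT CC and 610, 538 and 722 CPM in WT CB libraries. Kmt2a had -0.29 ± 0.22, with 1110 and 1103 CPM in HOMO CC and 1377 and 1437 CPM in HOMO CB libraries, against 1170, 1108 and 1112 CPM in WT CC and 1086, 945 and 1486 CPM in WT CB libraries. The WT CB libraries 1 and 2 of these 4 methyltransferases were the lowest of the CB libraries. Leaving out WT number 3 thus lowers the WT CB level of these genes beforehand, and the larger interaction then adds no support. Without both libraries of WT number 1, or without both of number 2, no member and no gene (0%) passed. Without both libraries of WT number 3, the same 4 methyltransferases, 10% of the members, passed, against 8.98% of all genes, with log2 interactions of -0.73 for Kmt2d (edgeR adjusted p = 0.00137), -0.58 for Kmt2c (adjusted p = 0.007), -0.51 for Kmt2a (adjusted p = 0.00731) and -0.36 for Nsd1 (adjusted p = 0.0383).

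**Figure D5:**
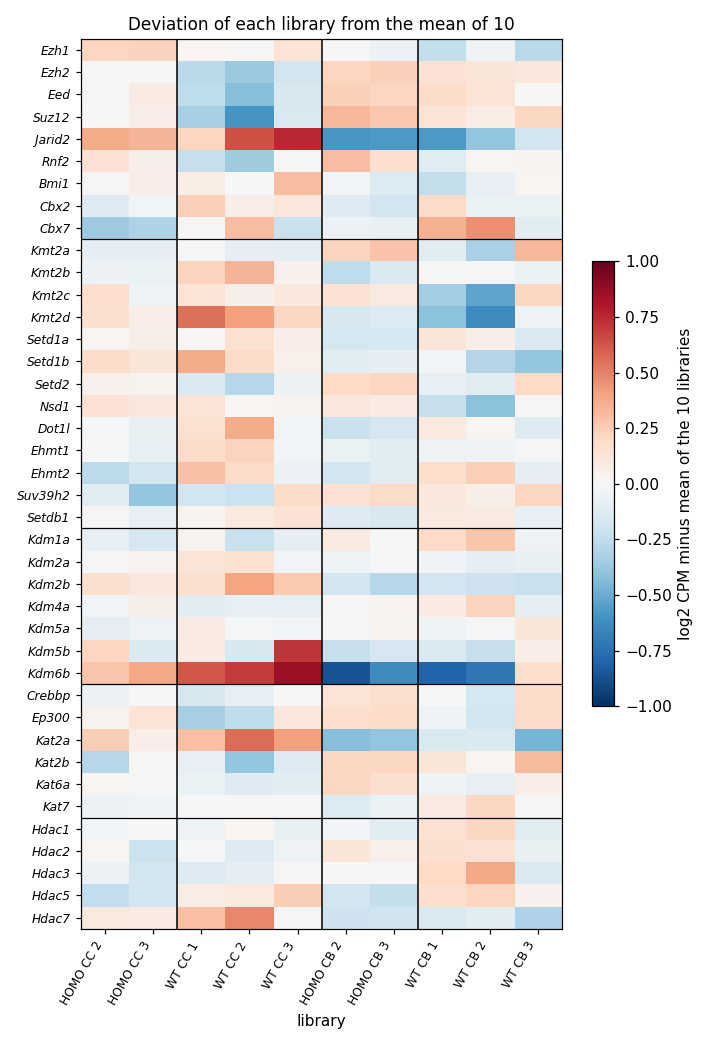
Level of each member in each library as the difference of its log2 CPM from the member's mean over the 10 libraries, with members grouped by role in rows and libraries by group in columns. Ezh2, Eed and Suz12 are lowest in WT CC libraries, Jarid2 and Kdm6b are high in CC libraries of both genotypes, and WT CB library 3 differs from WT CB libraries 1 and 2 in Kmt2a, Kmt2c and Kdm6b.

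Other genes of the same complexes were counted from a list of 131 genes that do not include the members, of which 130 were tested. In HOMO mice, 2 rose and 7 fell in CC relative to CB, which is 6.92%. In WT mice, 10 rose and 19 fell, which is 22.3% and near the 23.9% of all genes. By role, 3 rose and 4 fell of 23 other Polycomb genes in WT CC libraries, 4 and 5 of 31 methyltransferases and cofactors, 0 and 3 of 18 demethylases, 2 and 4 of 28 acetyltransferases and cofactors, and 1 and 3 of 30 deacetylases and cofactors. Between HOMO and WT none of the 130 passed in CB or in CC by edgeR, and none passed for the interaction. At an unadjusted p under 0.05 there were 28 in CB (21.5%, against 12.5% of all genes) and 33 in CC (25.4%, against 18.9% of all genes), shares that were not compared by a test.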

How the data were processed

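The deposited table holds raw, unnormalized read counts of 55421 genes in 10 libraries made after ribosomal RNA depletion, per the labels. The submitters' processing notes list STAR, FastQC, featureCounts, Subread, mm10 and R 4.2.1 without settings. The sources used here do not give the strand setting, the treatment of reads with several matches or the annotation release. The table also gives a deposited length per gene, used for levels per kilobase. Symbols came from a table of gene names, which matched 54587 identifiers with their version and 567 without it, while 267 were not matched. Separately, 54673 identifiers with a version were found in GENCODE M21, and all of these had the same span there. Groups came from the titles. HOMO columns are numbered 2 and 3 but HOMO titles 1 and 2, so a HOMO column has its group only and its number is a name.

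With edgeR 4.0.16, genes were kept by filterByExpr at a minimum count of 10 and a minimum total of 15 (16596 genes), scaled with TMM factors and fitted with 4 group means over all 10 libraries (6 residual degrees of freedom) in R 4.3.3. The robust quasi-likelihood F-test was adjusted by Benjamini-Hochberg over all genes tested, with a threshold of 0.05. The common dispersion corresponded to a biological coefficient of variation of 23.1%. An SE is the fitted log2 change over the square root of its F statistic, and CPM uses the TMM-scaled library size. DESeq2 1.42.0, other scalings and filters, a GC content offset (longest transcript of a gene), the ribosomal RNA share as a covariate and left-out libraries were alternatives. The scripts were tested on simulated data. Pairs of libraries of a group differed by more than sampling noise (chi-square per degree of freedom 4.14 to 80.7).

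The members, lists and tests were chosen with earlier results of these data known. Every member past the threshold is named; up to 4 per role, or else the 5 members with the smallest p in a comparison, have a value for each library. Before fits were compared, the WT numbers were checked for pairing: over 8805 genes, deviations of WT CC and WT CB libraries of the same number correlated with r = 0.301, 0.426 and 0.436, and those of different numbers with -0.411 to 0.278. The pairing is thus taken from the data, not from a label.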

Additional observations from a re-analysis of the deposited data

Results flagged for a closer look

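Kat7, an acetyltransferase of H3 and H4, stood higher in CC than in CB in every HOMO library and lower in every WT library. Of the 16596 genes tested, 4784 were higher in this way in HOMO mice and 2973 lower in WT mice, and genes that did both were not counted. Kat7 had 132 and 133 CPM in HOMO CC libraries, against 124 and 131 CPM in HOMO CB libraries, and 137, 137 and 136 CPM in WT CC libraries, against 145, 158 and 138 CPM in WT CB libraries. The log2 interaction, CC minus CB in HOMO less the same in WT, was 0.16 ± 0.13 (SE) and missed the threshold, as did the change within each genotype (edgeR adjusted p = 0.842 in HOMO and 0.409 in WT mice).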

How the results depend on the processing

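Of 26 alternatives, most left a member's call where it was, and no alternative turned the sign of a member called. For CC against CB in HOMO, 4 members and 1662 genes passed with DESeq2, 1475 genes without a filter, 4 members with a stricter filter, 20 members and 4452 genes with only the groups compared (2 libraries a group), 5 members and 2295 genes with the replicate block, 5 and 1832 with the block and the GC offset, 4 members with the ribosomal RNA share as covariate, 1366 genes without WT CC libraries 1 and 2, none without both HOMO libraries numbered 2 and 8 and 3213 with the GC offset without WT number 3; leaving out 1 library or 1 WT number gave 0 to 13 members and 174 to 3706 genes. For CC against CB in WT, only the groups compared gave 8 members (20%) and 2340 genes (15.6%). Block and GC offset gave 17 (42.5%) and 5525 (33.3%), and the covariate 2 (5%) and 656 (3.95%). Without WT CC libraries 1 and 2, which leaves 1 WT CC library, 3 (7.5%) and 858 (4.96%) passed. Without the HOMO libraries numbered 2, 2236 genes (12.7%) passed. The GC offset without WT number 3 gave 23 (57.5%) and 7191 (44.7%). Left-out libraries or WT numbers gave 3 to 24 members (up to 60%) and 1010 to 7404 genes (up to 46.0%). For HOMO against WT in CB, no member passed with DESeq2 (277 genes, 1.67%), without a filter (590, 2.02%) or with only the groups compared (0 genes). The replicate block gave 1 member (2.5%) and 1273 genes (7.67%). Block and GC offset gave 1 (2.5%) and 101 (0.609%), the member being Setd1b (0.41). The GC offset without WT number 3 gave 15 (37.5%) and 2649 (16.5%). Left-out WT libraries or numbers gave 0 to 19 members (up to 47.5%) and 0 to 4895 genes (up to 30.4%). In CC, 1 member (2.5%) and 816 genes (4.92%) passed with DESeq2. Without a filter 1 (2.5%) and 1314 (4.49%) passed, the member being Suz12 (0.41). No member passed with upper-quartile factors (1 gene), the stricter filter (2 genes) or the GC offset (2 genes). The replicate block gave 6 (15%) and 1868 (11.3%), and block with GC offset no member and 234 genes (1.41%). The GC offset without WT number 3 gave 9 (22.5%) and 3556 (22.1%). Left-out WT libraries or numbers gave 0 to 15 members (up to 37.5%) and 0 to 5035 genes (up to 31.3%). For the interaction, no member and 154 genes (0.526%) passed without a filter. The GC offset without WT number 3 gave 4 members (10%) and 1562 genes (9.71%). Left-out WT libraries or numbers gave 0 to 4 members (up to 10%) and 0 to 1445 genes (up to 8.98%), the highest without WT number 3. Members below the threshold turned sign and passed with the GC offset without WT number 3: for CC against CB in WT Kmt2a (0.21), Ehmt2 (-0.16) and Kdm5a (0.29), for HOMO against WT in CB Kmt2b (0.19), Kdm6b (0.42), Hdac2 (-0.25) and Hdac7 (0.34), and in CC Setd1a (0.25). The cause was not tested. The replicate block changed no other call than those named above. The settings without WT CC libraries 1 and 2, without the HOMO libraries numbered 2 and with the GC offset without WT number 3 were chosen after the data were seen. Depth limits Kdm5b, with at least 59 counts, more than the other members.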

Other observations

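Some demethylase genes lie on the sex chromosomes, and the X-linked ones are known to escape X inactivation. Kdm6a, an X-linked H3K27 demethylase, had 163 and 170 CPM in HOMO CC libraries, against 101, 86.2 and 175 CPM in WT CC libraries. In CB it had 186 and 219 CPM in HOMO CB libraries, against 145, 125 and 217 CPM in WT CB libraries. WT libraries of number 3 lay with the HOMO libraries, as they did for Xist, and the log2 changes between HOMO and WT of 0.47 ± 0.30 (SE) in CC (edgeR adjusted p = 0.43) and 0.32 ± 0.30 in CB (adjusted p = 0.682) did not pass.

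Its Y-linked homologue Uty had 25.3 to 39.4 CPM over the 10 libraries, and the Y-linked H3K4 demethylase Kdm5d had 48.9 and 35.3 CPM in HOMO CC libraries, against 61.0, 78.1 and 30.8 CPM in WT CC libraries; in CB it had 51.2 and 31.7 CPM in HOMO libraries, against 57.9, 79.4 and 26 CPM in WT libraries. The X-linked homologue Kdm5c had 190 to 227 CPM over all libraries. Each library thus held reads of Y-linked genes, and each held Xist.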
